A study of Drosophila melanogaster with 24 samples.

Results

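The genes described here are 59 genes whose mRNA was higher in the thorax of flies under each of 4 muscle knockdowns than under control RNAi. They were chosen by their measured values from the 15682 gene symbols listed, of which 14742 had at least 1 read in a thorax library. A gene was taken when all 12 knockdown libraries exceeded all 6 control libraries, when each knockdown mean was at least 2 times the pooled control mean, and when each knockdown mean was at least 2 CPM. CPM is the read count of a gene per 1000000 reads in genes. Of 14742 genes, 343 (2.33%) met the first condition and 73 met all 3. Left out by name were 14 of the 73, among them Amyrel, the lipase gene mag, 3 Mal-A maltase genes, 4 Jon proteases and 2 trypsin genes. CG18493, a protease gene, missed the rule itself, with 14.5 CPM in the controls and a smallest fold of 1.90, under Ter94 RNAi. Because the knockdown and control libraries chose these genes, their differences from the controls are given as a description without a test.

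All flies were males at 10 days of age. Thorax groups expressed 1 RNAi construct under the muscle driver Mhc (Mhc> in the labels), 3 libraries each. The constructs targeted GFP or white in the controls (Mhc>GFPRNAi, Mhc>whiteRNAi) and Prosbeta1, Prosbeta5, TER94 or CG6272 in the knockdowns (Mhc>ProsB1RNAi, Mhc>ProsB5RNAi, Mhc>Ter94RNAi, Mhc>CG6272RNAi). Prosbeta1 and Prosbeta5 encode proteolytic subunits of the proteasome, TER94 is the fly form of the p97 unfoldase, and CG6272 is a bZIP factor related to C/EBP. Heads came from driver-only flies (Mhc>+) and from flies in which the same driver overexpressed Amyrel (Mhc>Amyrel), 3 libraries each. No RNAi group of heads and no driver-only thorax group is used here. The driver acts in muscle, whereas a dissected thorax also holds fat body, blood cells, nerve, trachea and gut.

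Many of the 59 genes belong to families of the midgut epithelium. In the fly, enterocytes of the midgut secrete serine proteases and metallopeptidases that cut dietary protein, carry aminopeptidases and alkaline phosphatases on the apical membrane, and take up sterols, fatty acids and sugars. Regions along the length of the midgut make different sets of these enzymes.

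Between 28.9 and 79.2 M reads fell in genes in a thorax sample, and between 47.5 and 75.7 M in a head sample. Each targeted gene was lower in its knockdown than in every control library. Prosbeta1 stood at 77.2 ± 5.44 CPM in the controls (SD, n = 6) and 42.6 ± 2.84 CPM under its RNAi (SD, n = 3), Prosbeta5 at 136 ± 8.87 and 68.8 ± 4.43, TER94 at 340.5 ± 28.1 and 262 ± 2.62, and CG6272 at 26.5 ± 1.10 and 14.2 ± 0.597 CPM. Ter94 RNAi replicates 2 and 3 were more alike than any other replicate pair, with a median chi-square 1.38 times that of sampling noise against 2.28 to 48.7 times in the other pairs, so the count of the 59 genes that differed between Ter94 RNAi and the proteasome knockdowns is also given with the pair summed. The eye opsin gene ninaE exceeded 100 CPM in 3 control libraries (GFP RNAi replicates 2 and 3, white RNAi replicate 1). The accessory gland gene Acp36DE exceeded 30 CPM in GFP RNAi replicate 1, white RNAi replicate 2 and ProsB5 RNAi replicate 1. The CG6272 libraries are titled in a different format, so a batch of libraries and that knockdown cannot be told apart. Flight muscle markers summed to 15820 to 25580 CPM in thoraces and 3389 to 3849 CPM in heads.

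As a group the 59 genes were scarce in control thoraces and reached a visible share of the library in the knockdowns. Their summed level was 533, 182 and 171 CPM in GFP RNAi and 224, 215 and 289.6 CPM in white RNAi. It was 7855, 2592 and 5291 CPM under ProsB1 RNAi, 4525, 3301 and 3657 CPM under ProsB5 RNAi, 2176, 1569 and 1606 CPM under Ter94 RNAi and 4244, 3087 and 2188 CPM under CG6272 RNAi. The 12 knockdown sums lay between 1569 and 7855 CPM and did not overlap with the control sums of 170.6 to 532.7 CPM, as the rule requires of each gene. The median fold over the pooled control mean was 33.3 under ProsB1 RNAi (range 2.73 to 588), 24.1 under ProsB5 RNAi (2.28 to 303), 11.3 under Ter94 RNAi (2.10 to 138) and 19.8 under CG6272 RNAi (2.49 to 688). In thorax tissue, more cells of a type and more RNA per cell cannot be told apart. All 59 pass edgeR's call threshold in each knockdown, where 11.6% (ProsB1), 17.3% (ProsB5), 29.7% (Ter94) and 13.3% (CG6272) of all tested genes were called higher. That count was fixed by how the genes were chosen and is no test of them.

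**Figure D1:**
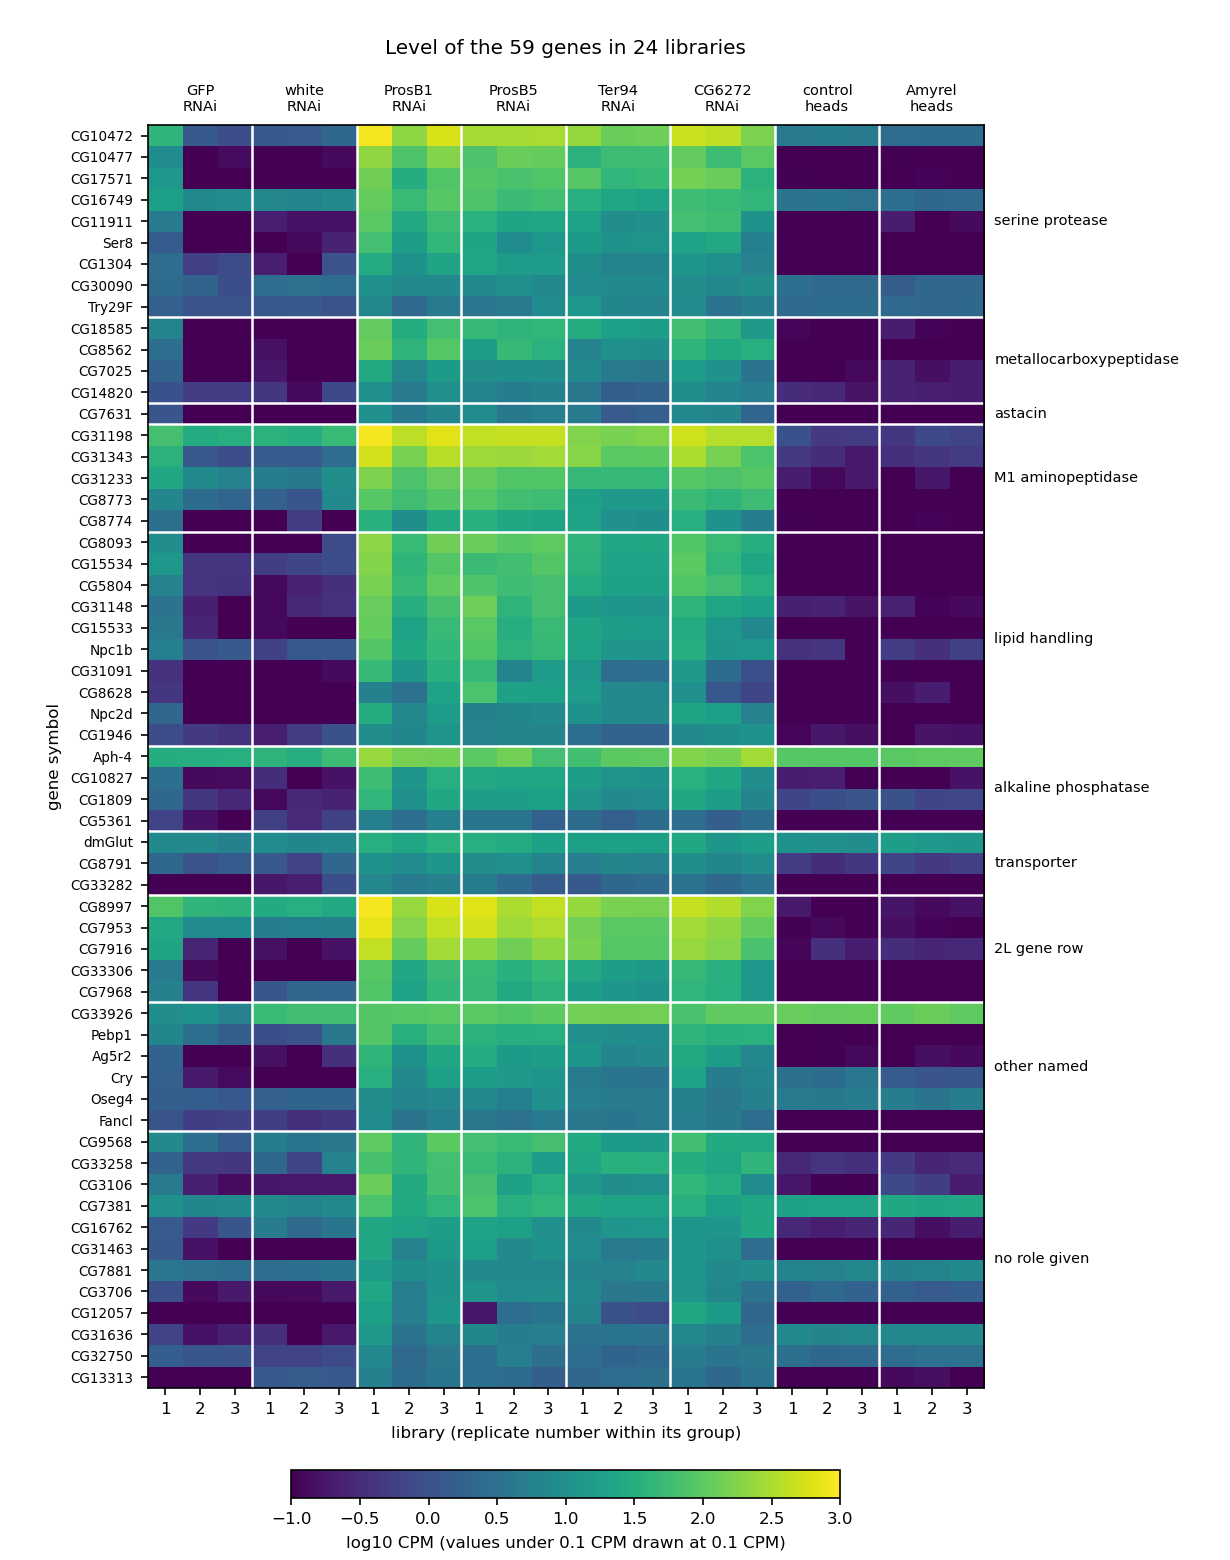
Level of each of the 59 genes (rows, grouped by role) in each of the 24 libraries (columns, 3 replicates per group), as log10 CPM on the colour scale, with values under 0.1 CPM drawn at 0.1 CPM. The 12 knockdown columns are brighter than the 6 control columns in every row, GFP RNAi replicate 1 is the brightest control column in 48 rows, and 43 rows stay under 1 CPM in all 6 head columns.

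The genes just inside the thresholds had smallest folds of 2.10 (CG7881), 2.36 (CG32750) and 2.40 (Aph-4), and the nearest genes outside had 1.998 (CG18173), 1.96 (TotX) and 1.92 (Ast-C). At the level threshold the smallest knockdown means were 2.04 CPM (CG33282), 2.15 CPM (CG12057) and 2.19 CPM (CG1946) inside and 1.84 CPM (CG34386), 1.75 CPM (CG11162) and 1.65 CPM (Toll-9) outside. The largest smallest folds were those of CG12057 (104.5), the lipase gene CG31091 (52.5), the protease gene Ser8 (39.5), the acyl-CoA binding gene CG8628 (34.2), the protease gene CG10477 (32.5), CG7916 (29.3), the protease gene CG17571 (26.2) and CG33306 (24.9). The folds of CG12057 rest on 4 control reads in all, against 22 to 739 for the other 7. CG12057 also had only 6 reads (0.173 CPM) in ProsB5 RNAi replicate 1. It missed the rule without ProsB5 RNAi replicate 2 or 3 or without Ter94 RNAi replicate 1. Per kilobase of exon in the Ensembl BDGP6 annotation, the highest mean levels over the 12 knockdown libraries were those of CG10472 (364 CPM per kb), CG8997 (283), CG7953 (247), CG7916 (200.4), CG5804 (186), CG31198 (138), CG33926 (126) and CG31343 (77.6).

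Serine proteases of the trypsin and chymotrypsin family made up 9 of the 59 genes. Their summed level was 95.3, 13.2 and 12.4 CPM in GFP RNAi and 12.7, 12.6 and 15.5 CPM in white RNAi. In the knockdowns it was 1531, 432 and 1065 CPM under ProsB1 RNAi, 633, 617 and 634.5 CPM under ProsB5 RNAi, 461, 288.5 and 298 CPM under Ter94 RNAi and 908, 742 and 376 CPM under CG6272 RNAi. GFP RNAi replicate 1 stood apart from the other 5 controls, below every knockdown library. CG10472, the most abundant per kilobase, was at 41.9, 1.37 and 0.872 CPM in GFP RNAi and 1.28, 1.41 and 2.14 CPM in white RNAi. It reached 859, 209 and 572 CPM under ProsB1 RNAi, 300.1, 304 and 310.2 CPM under ProsB5 RNAi, 232, 126 and 129 CPM under Ter94 RNAi and 481, 408 and 161 CPM under CG6272 RNAi. Its lowest knockdown library was Ter94 RNAi replicate 2 and its highest control library GFP RNAi replicate 1, with no overlap.

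CG17571, another protease of the family, was under 0.1 CPM in 5 controls, with 13.55, 0.0638 and 0.0323 CPM in GFP RNAi and 0, 0.0941 and 0.03145 CPM in white RNAi. Under the knockdowns it was at 137, 29.7 and 82.9 CPM under ProsB1 RNAi, 84.15, 71.1 and 81.2 CPM under ProsB5 RNAi, 90.3, 42.97 and 47.1 CPM under Ter94 RNAi and 146, 124 and 37.8 CPM under CG6272 RNAi. CG6272 RNAi had its highest mean, although its replicate 3 lay below every ProsB5 and Ter94 library. CG10477 was at 8.86, 0.0958 and 0.129 CPM in GFP RNAi and 0.0304, 0.0627 and 0.126 CPM in white RNAi. In the knockdowns CG10477 was at 216.5, 77.85 and 184 CPM under ProsB1 RNAi, 77.7, 127 and 112 CPM under ProsB5 RNAi, 37.1, 55.7 and 58.1 CPM under Ter94 RNAi and 108, 57.1 and 95.9 CPM under CG6272 RNAi. Ser8, at 1.46, 0.0638 and 0.0323 CPM in GFP RNAi and 0, 0.1255 and 0.252 CPM in white RNAi, was likewise highest in GFP RNAi replicate 1 among the controls. Ser8 stood at 64.5, 17.75 and 43.7 CPM under ProsB1 RNAi, 21.5, 8.84 and 13.3 CPM under ProsB5 RNAi, 15.3, 11.35 and 11.6 CPM under Ter94 RNAi and 20.3, 25.6 and 5.37 CPM under CG6272 RNAi. The other 5 proteases spanned smallest folds from 2.75 (CG16749) through 3.48 (CG30090), 3.82 (Try29F) and 8.40 (CG1304) to 15.6 (CG11911). CG30090, named Erasp in the RefSeq table, had almost the same level in the 4 knockdowns, with folds of 3.48 to 3.77. Try29F was the 1 protease whose mean was highest under Ter94 RNAi, at 13.7, 6.79 and 6.235 CPM, against 7.20, 2.30 and 4.69 CPM under ProsB1 RNAi.

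Peptidases that trim peptides from their ends formed the next group. The 4 metallocarboxypeptidases, which remove residues from the C-terminus, summed to 11.7, 0.6065 and 0.549 CPM in GFP RNAi and 0.8515, 0.282 and 0.849 CPM in white RNAi. The knockdown sums were 268, 80.98 and 177.5 CPM under ProsB1 RNAi, 81.9, 102 and 95.5 CPM under ProsB5 RNAi, 48.2, 34.6 and 33.4 CPM under Ter94 RNAi and 130.1, 84.99 and 55.4 CPM under CG6272 RNAi. CG18585 and CG7025 are adjacent genes on chromosome arm 2L, with smallest folds of 20.7 and 16.0. CG8562 had a smallest fold of 17.5 and the largest fold of the 4, 165, and CG14820 the lowest smallest fold, 4.45. The astacin-like metalloprotease gene CG7631 was under 1 CPM in 5 controls and between 1.38 and 10.5 CPM in the knockdowns.

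The 5 aminopeptidases of the M1 family, which cut at the N-terminus, summed to 138.5, 41.1 and 42.01 CPM in GFP RNAi and 44.9, 38.8 and 71.6 CPM in white RNAi. They summed to 1721, 692 and 1269 CPM under ProsB1 RNAi, 933.5, 864 and 888 CPM under ProsB5 RNAi, 451, 325 and 344 CPM under Ter94 RNAi and 1013, 642 and 585 CPM under CG6272 RNAi. CG31198 was detected in every control, with 67.3, 29.05 and 33.2 CPM in GFP RNAi and 36.8, 31.4 and 51.45 CPM in white RNAi. In the knockdowns it was at 894, 395 and 659 CPM under ProsB1 RNAi, 432, 442 and 447 CPM under ProsB5 RNAi, 174, 157 and 175 CPM under Ter94 RNAi and 514, 361 and 364 CPM under CG6272 RNAi. The 3 Ter94 libraries lay below the other 9 knockdown libraries. CG31343, in the same run of genes, was low in 5 controls, at 37.02, 1.31 and 0.872 CPM in GFP RNAi and 1.46, 1.47 and 2.67 CPM in white RNAi. In the knockdowns CG31343 was at 534, 151.5 and 377 CPM under ProsB1 RNAi, 267, 253.5 and 279 CPM under ProsB5 RNAi, 191, 94.3 and 98.7 CPM under Ter94 RNAi and 324, 153 and 73.2 CPM under CG6272 RNAi. The smallest folds of CG31198 and CG31343 were 4.06 and 17.2. CG31233, between them on 3R, had a smallest fold of 4.99, and the adjacent pair CG8773 and CG8774 had 4.29 and 22.6.

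Genes of lipid handling numbered 10. Their sum was 45.1, 3.13 and 2.81 CPM in GFP RNAi and 1.79, 3.17 and 5.0 CPM in white RNAi. Under the knockdowns it was 950.1, 247 and 569.9 CPM under ProsB1 RNAi, 696, 361 and 463 CPM under ProsB5 RNAi, 207, 125 and 124 CPM under Ter94 RNAi and 421, 234 and 145 CPM under CG6272 RNAi. CG15533 and CG15534, adjacent genes for acid sphingomyelinases, which split sphingomyelin, had smallest folds of 21.6 and 9.37. CG15533 was at 4.05, 0.255 and 0.0646 CPM in GFP RNAi and 0.122, 0.0314 and 0.0629 CPM in white RNAi. Its knockdown levels were 113.5, 20.9 and 50.02 CPM under ProsB1 RNAi, 95.01, 31.3 and 48.8 CPM under ProsB5 RNAi, 21.8, 16.98 and 15.8 CPM under Ter94 RNAi and 28.6, 13.7 and 7.28 CPM under CG6272 RNAi. CG31148, named Gba1a in the RefSeq table and encoding a glucocerebrosidase, had a smallest fold of 18.3 and reached 131 CPM in ProsB5 RNAi replicate 1. All 3 of these enzymes of sphingolipid breakdown thus had folds of at least 9.37 in every knockdown.

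Npc1b, the sterol transporter needed for cholesterol uptake in the fly midgut, was at 5.39, 1.05 and 1.32 CPM in GFP RNAi and 0.608, 1.255 and 1.35 CPM in white RNAi. It was at 84.3, 25.3 and 43.8 CPM under ProsB1 RNAi, 82.65, 37.8 and 46.1 CPM under ProsB5 RNAi, 20.1, 12.2 and 11.6 CPM under Ter94 RNAi and 31.6, 12.3 and 13.5 CPM under CG6272 RNAi. The proteasome knockdowns lay above the Ter94 and CG6272 knockdowns in mean, although ProsB1 RNAi replicate 2 (25.3 CPM) was below CG6272 RNAi replicate 1 (31.6 CPM). Npc2d, of the sterol-binding NPC2 family, was listed with 0 to 1 read in 5 controls and 68 reads in GFP RNAi replicate 1, and lay between 5.74 and 29.95 CPM in the knockdowns. The lipase gene CG8093 had a smallest fold of 17.5. The lipase gene CG31091 ranged widely, at 47.8, 13.2 and 34.6 CPM under ProsB1 RNAi, 47.6, 6.41 and 15.96 CPM under ProsB5 RNAi, 13.7, 2.73 and 2.84 CPM under Ter94 RNAi and 14.4, 2.62 and 0.9475 CPM under CG6272 RNAi. CG8628 and CG5804, named Acbp3 and Acbp5 in the RefSeq table, encode binders of acyl-CoA. CG8628 departed from the usual order, with 5.765, 3.14 and 20.3 CPM under ProsB1 RNAi, 74.3, 19.5 and 18.7 CPM under ProsB5 RNAi, 15.8, 7.65 and 7.41 CPM under Ter94 RNAi and 10.7, 1.27 and 0.695 CPM under CG6272 RNAi. ProsB5 RNAi and not ProsB1 RNAi had its highest mean. CG5804 had a smallest fold of 18.3, and CG1946, of the diacylglycerol acyltransferase family, 3.82.

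The 4 alkaline phosphatase genes carry newer symbols in the RefSeq table (Alp4, Alp5, Alp6 and Alp13). Aph-4 (Alp4) was well detected in the controls, at 30.2, 31.6 and 32.2 CPM in GFP RNAi and 39.9, 30.8 and 55.6 CPM in white RNAi. Under the knockdowns it was at 243.5, 150.1 and 147 CPM under ProsB1 RNAi, 93.4, 139 and 63.3 CPM under ProsB5 RNAi, 61.6, 99.5 and 103 CPM under Ter94 RNAi and 179.6, 159 and 276 CPM under CG6272 RNAi. CG6272 RNAi had the highest Aph-4 mean, and the lowest knockdown library, Ter94 RNAi replicate 1 at 61.6 CPM, lay close to white RNAi replicate 3 at 55.6 CPM. CG10827 and CG1809 had smallest folds of 22.02 and 16.1, and CG5361 had 5.81. Of 3 transporter genes, dmGlut, of the sugar transporter family, had folds of 2.49 to 4.18, CG8791 (MFS12) of 4.03 to 7.53 and CG33282 of 8.32 to 22.7. All 3 were at most 36.2 CPM in any thorax library.

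A row of 5 neighbouring genes on 2L, CG33306, CG8997, CG7916, CG7953 and CG7968, lies next to each other in the RefSeq table of the Release 6 assembly, and no role is given for them here. Together they accounted for 17.7 to 32.5% of the summed level of the 59 genes in the knockdown libraries. Their sum was 138, 50.3 and 47.5 CPM in GFP RNAi and 34.2, 39.8 and 33.7 CPM in white RNAi. It was 2214, 581.5 and 1383 CPM under ProsB1 RNAi, 1472, 783 and 1054 CPM under ProsB5 RNAi, 574, 369 and 364 CPM under Ter94 RNAi and 1054, 818 and 387 CPM under CG6272 RNAi. CG7916 was at 21.9, 0.255 and 0 CPM in GFP RNAi and 0.152, 0.0627 and 0.157 CPM in white RNAi. In the knockdowns CG7916 was at 437, 115 and 277 CPM under ProsB1 RNAi, 210.0, 137 and 209 CPM under ProsB5 RNAi, 155, 86.7 and 88.1 CPM under Ter94 RNAi and 242, 189 and 72.1 CPM under CG6272 RNAi. CG8997 was detected in every control, at 80.6, 41.1 and 38.75 CPM in GFP RNAi and 27.95, 32.3 and 25.9 CPM in white RNAi. Its knockdown levels were 875, 237.5 and 580.4 CPM under ProsB1 RNAi, 629.9, 320.1 and 429.7 CPM under ProsB5 RNAi, 236, 156 and 153 CPM under Ter94 RNAi and 439.5, 343 and 176 CPM under CG6272 RNAi. Within the row the smallest folds therefore ran from 4.42 (CG8997) to 29.3 (CG7916). CG7916, CG7953 and CG7968 overlap CenG1A on the same strand in the newer annotation, and CG33306 and CG8997 overlap it on the other strand. How the authors' counting handled overlaps is not given in the sources used here.

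Of the other named genes, Pebp1 belongs to the phosphatidylethanolamine-binding family, Ag5r2 to the antigen 5-related secreted proteins, Fancl to the ubiquitin ligases of DNA crosslink repair, and Oseg4 to intraflagellar transport. Cry, named Crys in the RefSeq table, encodes a crystallin of the lens and is not the clock gene cry, which the files list apart. CG33926 (Srg3) had another pattern than most of the genes. It was at 9.32, 11.1 and 5.97 CPM in GFP RNAi and 49.9, 58.95 and 61.2 CPM in white RNAi. In the knockdowns it was at 85.6, 86.9 and 95.85 CPM under ProsB1 RNAi, 94.3, 83.1 and 96.8 CPM under ProsB5 RNAi, 139, 134 and 141 CPM under Ter94 RNAi and 70.3, 107 and 106 CPM under CG6272 RNAi. White RNAi stood above GFP RNAi without overlap, and Ter94 RNAi had the highest mean, which held for only 1 other gene, Try29F. No role is given for the remaining 12 genes, whose smallest folds had a median of 8.59.

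**Figure D2:**
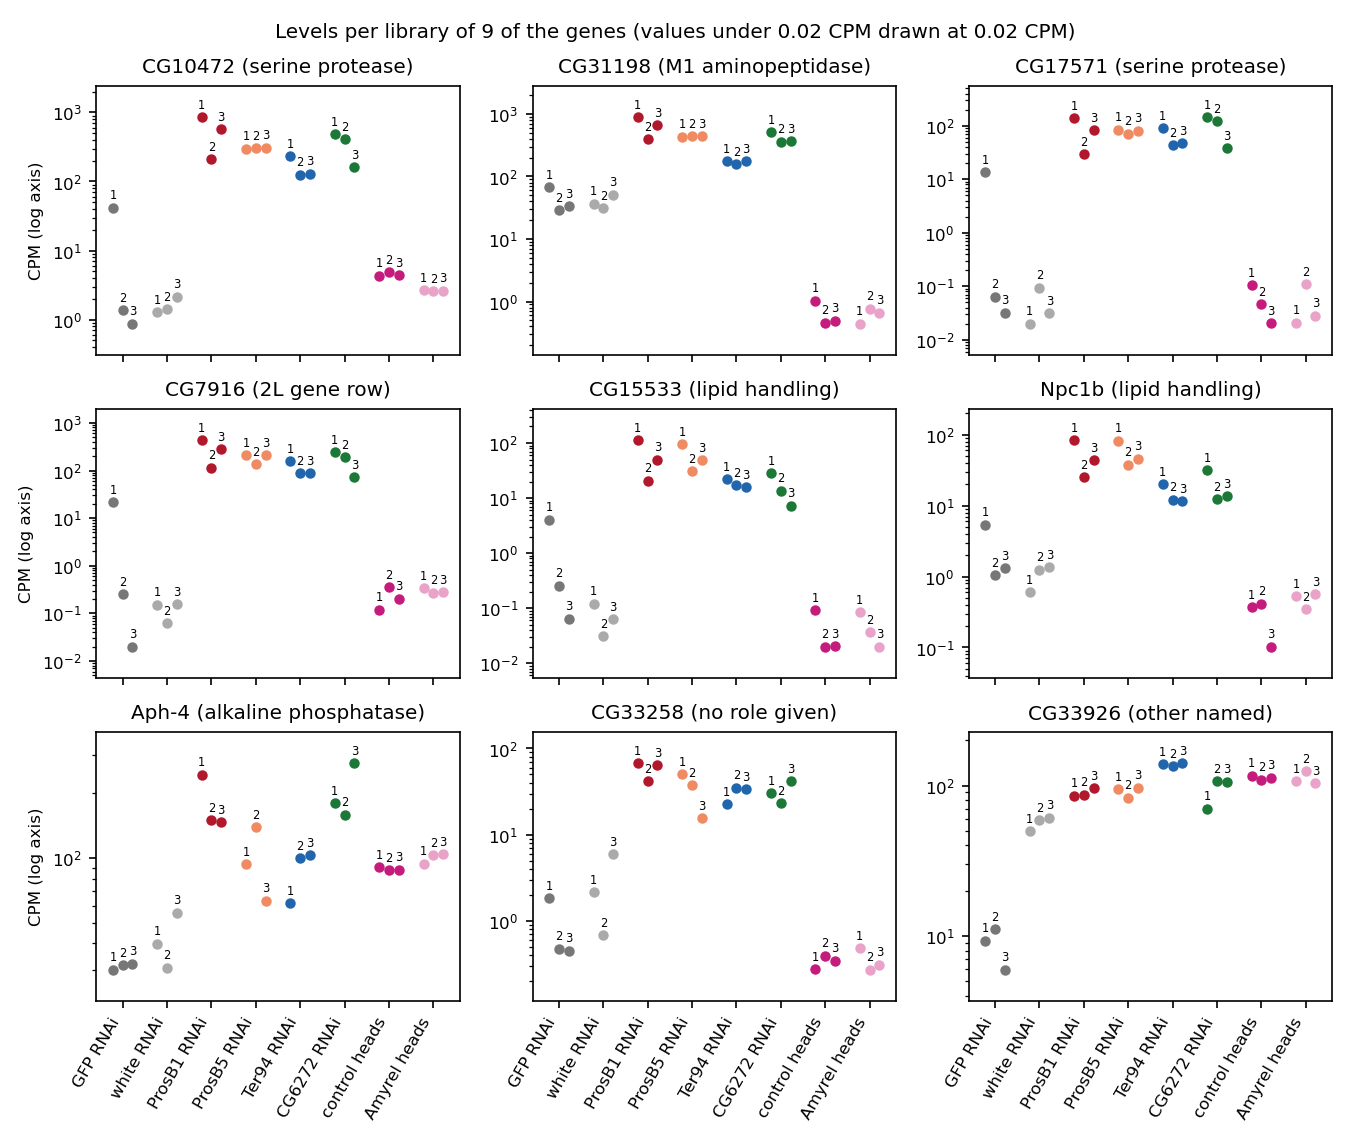
CPM on a log axis for 9 of the 59 genes in the 8 groups, each point being 1 library marked with its replicate number and values under 0.02 CPM drawn at 0.02. GFP RNAi replicate 1 stands above the other controls for CG10472, CG31198, CG17571, CG7916, CG15533 and Npc1b, whereas Aph-4, CG33258 and CG33926 do not show this order.

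The replicates of a group moved together across most of the genes. In ProsB1 RNAi, replicate 1 was highest for 53 of 59 and replicate 2 lowest for 55, where replicate 1 was highest for 37.5% of the other tested genes and replicate 2 lowest for 25.9%. Replicate 1 was also highest for 50 genes in CG6272 RNAi (27.0% of other genes), for 44 in Ter94 RNAi (42.7%) and for 38 in ProsB5 RNAi (31.9%). Among the 6 controls GFP RNAi replicate 1 was highest for 48 genes (24.7% of other genes). It exceeded the mean of the other 5 controls by a median of 4.91 times and by 10 times or more for 25 genes, and stayed within 2 times of it for 14. For 25 genes it was the only control over 1 CPM. The order is a description, since the libraries are those in which the genes were chosen. The opsin gene ninaE was lowest among thoraces in replicate 1 of GFP (0.700 CPM), ProsB1 (0.218), ProsB5 (0.317) and Ter94 RNAi (0.312). In CG6272 RNAi it was at 17.98, 17.03 and 18.9 CPM, so replicate 1 did not stand apart there. Whether other tissue in the samples has a part in the replicate order was not tested.

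The share of each role in the summed level was compared between GFP RNAi replicate 1, the other 5 controls and the knockdowns. For 7 of 10 roles the other controls did not overlap with the knockdowns, and GFP RNAi replicate 1 lay inside the knockdown range for 6 of the 7. These counts are a description, since the same libraries chose the genes and shares of 1 sum depend on each other. Such shares were not computed for other sets of genes. The shares of the 2L row, the aminopeptidases and the other named genes overlapped between those controls and the knockdowns, the 2L row being 25.9, 27.7 and 27.9% in GFP RNAi, 11.6 to 18.5% in white RNAi and 17.7 to 32.5% in the knockdowns. Serine proteases were 17.9% of the sum in GFP RNAi replicate 1, 13.99 to 24.04% in the knockdown libraries and 5.35 to 7.27% in the other 5 controls. Lipid genes were 8.47% in that library, 6.625 to 15.4% in the knockdowns and 0.800 to 1.73% in the other controls. Alkaline phosphatases were 6.73%, 2.915 to 13.5% in the knockdowns and 14.6 to 19.5% in the other controls. With GFP RNAi replicate 1 left out of the controls, the median fold was 67.9 under ProsB1 RNAi, 56.9 under ProsB5 RNAi, 16.8 under Ter94 RNAi and 31.0 under CG6272 RNAi, and 70 genes met the rule.

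Some genes departed from the common order of replicates. In CG6272 RNAi, 7 genes were highest in replicate 3 (Aph-4, CG16762, CG1946, CG30090, CG33258, CG33282 and CG8773). Of those, Aph-4, CG16762, CG33258 and CG33282 were also lowest in replicate 1 of Ter94 RNAi, together with CG10477, CG13313, CG31233, CG31636, CG8562 and CG8791. CG33258 was at 67.9, 41.5 and 63.8 CPM under ProsB1 RNAi, 49.99, 37.8 and 15.7 CPM under ProsB5 RNAi, 22.8, 35.1 and 33.5 CPM under Ter94 RNAi and 30.2, 23.4 and 41.9 CPM under CG6272 RNAi. These genes were named after their values were seen.

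Across the knockdown means, ProsB1 RNAi was highest for 46 of 59 genes (13.1% of other tested genes) and Ter94 RNAi lowest for 49 (23.0%). The order ProsB1, ProsB5, CG6272, Ter94 held for 30 genes, and ProsB1, CG6272, ProsB5, Ter94 for 10. ProsB5 RNAi was highest for 7 genes, CG6272 RNAi for 4 and Ter94 RNAi for 2. The lead of ProsB1 RNAi did not hold in each library. The genes summed to 2592 CPM in its replicate 2, below every ProsB5 library (3301 to 4525 CPM). These counts are a description, since the means entered the rule and the genes moved together within a library.

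Markers of enterocytes were measured beside the 59 genes, since the thorax also holds gut. Of the 15 markers listed, 14 are not among the 59, and none of these was at 0 in every library. Their sum was 9575 to 10660 CPM in GFP RNAi, 9210 to 10210 CPM in white RNAi, 7174 to 10460 CPM in ProsB1 RNAi, 8389 to 16670 CPM in ProsB5 RNAi, 538.9 to 2767 CPM in Ter94 RNAi, 4755 to 10550 CPM in CG6272 RNAi and 168 to 238 CPM in heads. In the controls most of this sum came from alphaTry, betaTry, Amy-p and Amy-d, each at 1204 CPM or more in every control library. In edgeR's test 5 of the 14 rose and 2 fell in ProsB1 RNAi, 5 and 2 in ProsB5 RNAi, 2 and 10 in Ter94 RNAi, and 3 and 4 in CG6272 RNAi. The lipase gene mag, 1 of the 14, met the rule itself and was left out by name only, and without it 4, 4, 1 and 2 of 13 rose, in the same order of knockdowns. The trypsin gene alphaTry was at 2747, 2536 and 2605 CPM in GFP RNAi, at 47.75, 611 and 655 CPM in Ter94 RNAi and at 1203, 1810 and 2955 CPM in CG6272 RNAi. In Ter94 and CG6272 RNAi the library lowest in alphaTry was the one highest in the summed level of the 59 genes. In ProsB1 RNAi replicate 2 was lowest in both, at 2119 CPM of alphaTry, and in ProsB5 RNAi replicate 1 was highest in both, at 3233 CPM. The marker sum was also lowest in replicate 1 of Ter94 and CG6272 RNAi, but not every marker was. In CG6272 RNAi mex1, Myo31DF, Vha100-4 and lab were lowest in replicate 2 and mag in replicate 3. In Ter94 RNAi Myo31DF and mag were lowest in replicate 2. Vha100-4, a proton pump subunit, was at 3.715 CPM in GFP RNAi replicate 1, 0.0304 to 0.188 CPM in the other controls and 0.485 to 33.4 CPM in the knockdowns. Ter94 RNAi replicate 1 and CG6272 RNAi replicate 2 lay below GFP RNAi replicate 1 for it. Whether the gut content of the samples has a part in the levels of the 59 genes was not tested.

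**Figure D3:**
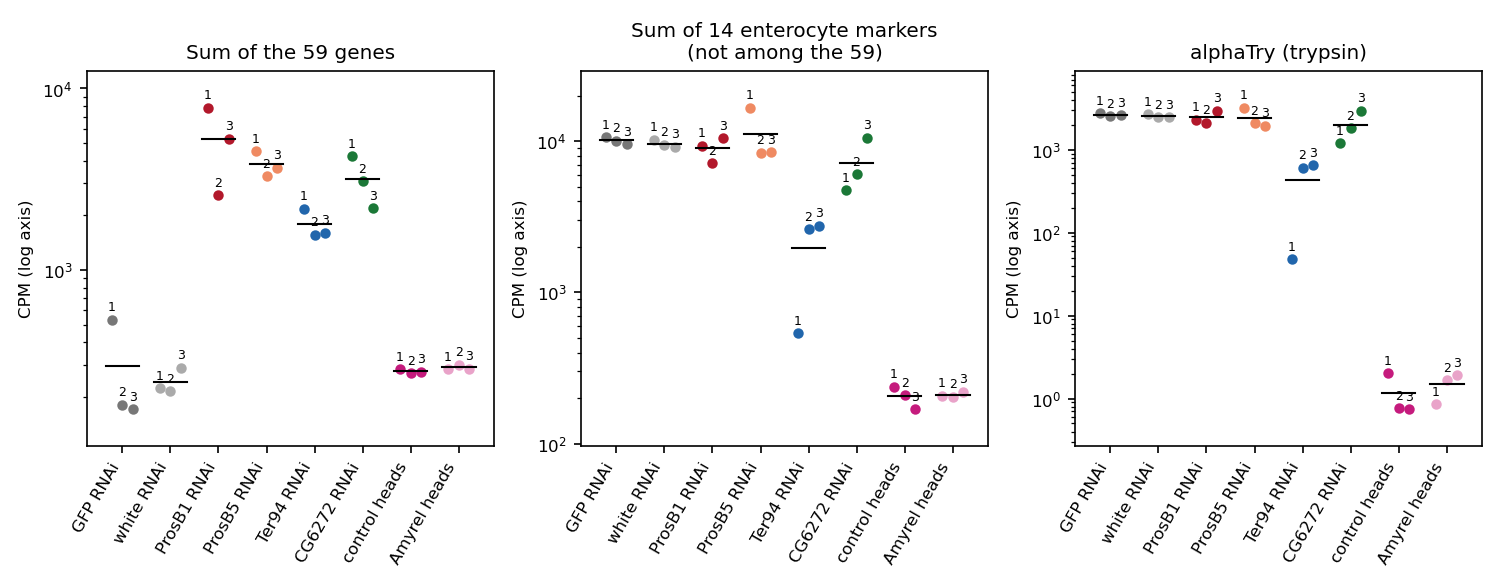
Summed CPM of the 59 genes, summed CPM of 14 enterocyte markers that are not among them, and CPM of alphaTry, on log axes, by group, each point being 1 library marked with its replicate number and the bar the mean of 3. The 59 genes sum to 170.6 to 532.7 CPM in the controls and 1569 to 7855 CPM in the knockdowns, while the marker sum is 9210 to 10660 CPM in the controls and lowest among thoraces in Ter94 RNAi replicate 1, at 538.9 CPM.

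Markers of other tissues were summed in the same way. Photoreceptor markers were lower in 3 knockdowns, 8 of 13 in ProsB1 RNAi, 13 in ProsB5 RNAi and 9 in Ter94 RNAi by edgeR, with median log2 fold changes of -4.83, -4.94 and -3.53, and in CG6272 RNAi the median was -3.09. Their sum was 120.1 to 1033 CPM in the controls, which include the 3 libraries rich in ninaE, and 80.4 to 177 CPM in the knockdowns. Fat body markers summed to 8144 to 10820 CPM in the controls and 9383 to 16620 CPM in the knockdowns, and Malpighian tubule markers to 302.5 to 380.0 CPM and 334 to 569 CPM. Haemocyte markers summed to 604 to 694 CPM in the controls, 730.2 to 936 CPM in the proteasome knockdowns and 504 to 623 CPM in the other knockdowns. Of 8 haemocyte markers 3 rose in ProsB1 RNAi and 8 in ProsB5 RNAi, 1 rose and 5 fell in Ter94 RNAi, and 4 fell in CG6272 RNAi. Salivary gland markers summed to 38.6 to 56.4 CPM in the controls and 26.4 to 53.9 CPM in the knockdowns. Male accessory gland markers, 9 genes, summed to 0.0935 to 266.5 CPM in thorax libraries, and 10 testis markers to at most 12.01 CPM. Gut progenitor and enteroendocrine markers summed to 157 to 198 CPM in the controls and 141 to 261 CPM in the knockdowns, and neuron markers to 812 to 1001 and 467 to 1426 CPM. The 2 tracheal markers summed to at most 34.5 CPM in the controls and 39.1 CPM in the knockdowns. The part of these tissues in the levels of the 59 genes was not tested.

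Heads were not used to choose the genes. Of the 59, 43 were under 1 CPM in all 6 head libraries, 14 were at or over 1 CPM in all 6, and 2 in some. In heads the summed level was 271 to 302 CPM, within the range of the control thoraces, but other genes carried it. CG33926 stood at 103 to 125 CPM and Aph-4 at 87.6 to 104 CPM across the 6 libraries, while the 2L row summed to 0.369 to 0.715 CPM and the 5 aminopeptidases to 0.9045 to 1.89 CPM. The other genes at or over 1 CPM in every head were CG7381 (19.2 to 24.25 CPM), dmGlut (9.14 to 17.2 CPM), CG31636 (6.59 to 7.98 CPM), CG7881 (5.72 to 7.93 CPM), CG10472, Oseg4, CG16749, CG32750, Try29F, CG30090, CG3706 and Cry. For 12 of the 59 the head mean exceeded the control thorax mean, and for none did it exceed every knockdown mean.

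Comparisons that did not choose the genes were tested with edgeR over all genes that passed the low-count filter. ProsB5 RNAi was first set against ProsB1 RNAi, the other proteasome knockdown. Of 59 genes tested 0 were higher and 1 was lower, where 5.97% of all genes were called, 3.41% higher and 2.56% lower. The median difference of the 59 was -0.40 on the log2 scale against 0.01 for all genes, and 50 of 59 lay below 0. The called gene was CG7881, at 16.1, 9.81 and 10.8 CPM under ProsB1 RNAi and 7.61, 7.025 and 7.01 CPM under ProsB5 RNAi. The groups did not overlap, and the share of other genes without overlap was not counted. The log2 fold change of CG7881 was -0.75 ± 0.18 with an edgeR adjusted p of 0.0279, which ran from 0.00364 to 0.0919 over 21 alternatives. At an unadjusted p under 0.05, 5 genes were lower and 1 was higher, and the share of all genes at that threshold was not counted. CG12057 had the lowest difference (-2.49 ± 0.96) and CG8628 the highest (1.96 ± 0.67), neither called (edgeR adjusted p = 0.190 and 0.124). Without ProsB1 RNAi replicate 3, CG8628 was called, at 3.09 ± 0.68 (edgeR adjusted p = 0.0310). Without any 1 of the 3 ProsB5 RNAi libraries or ProsB1 RNAi replicate 1, CG7881 was no longer called. DESeq2 called 0 higher and 1 lower.

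Ter94 RNAi was set against the average of both proteasome knockdowns. Of the 59 genes 35 were lower and 1 was higher, where 57.1% of all tested genes were called, 27.4% higher and 29.6% lower. Their median was -1.38 on the log2 scale against -0.01 for all genes, and 57 of 59 lay below 0. By role, 7 of 10 lipid genes, 3 of 9 serine proteases, 3 of 5 aminopeptidases, 2 of 4 metallocarboxypeptidases, 2 of 4 alkaline phosphatases, 2 of 3 transporters, 3 of 5 genes of the 2L row, 4 of 6 other named genes and 9 of 12 genes with no role given were lower. CG31198, at 174, 157 and 175 CPM under Ter94 RNAi and 395 to 894 CPM in the 6 proteasome libraries, fell by 1.83 ± 0.29 on the log2 scale (edgeR adjusted p = 0.000181). CG1946, at 2.84, 1.90 and 1.84 CPM against 5.91 to 11.95 CPM, fell by 1.99 ± 0.34 (edgeR adjusted p = 0.000307). For both, Ter94 RNAi lay below every proteasome library. CG16749, at 33.2, 22.5 and 20.85 CPM against 50.3 to 114 CPM, fell by 1.71 ± 0.31 (edgeR adjusted p = 0.000443). Pebp1, at 10.6, 9.10 and 8.97 CPM against 30.6 to 83.6 CPM, fell by 2.39 ± 0.45 (edgeR adjusted p = 0.000635). CG8773, at 19.8, 14.3 and 13.99 CPM against 57.3 to 92.1 CPM, fell by 2.37 ± 0.49 (edgeR adjusted p = 0.00115). These groups did not overlap either, and all 5 calls held in each of 22 alternatives. The 5 were picked by lowest adjusted p, and the share of other genes without overlap was not counted.

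CG33926 was the 1 gene higher under Ter94 RNAi than under the proteasome knockdowns, at 139, 134 and 141 CPM against 83.1 to 96.8 CPM (0.44 ± 0.13 on the log2 scale, edgeR adjusted p = 0.00920). With Ter94 replicates 2 and 3 summed as 1 library, 23 genes were lower, and without either of them 22 were, against 35. Of the 14 enterocyte markers outside the 59, 13 were lower in the same comparison, all but mag, with a median of -2.65 over the 14. Their part in the lower levels of the 59 genes was not tested.

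CG6272 RNAi set against the same average gave no call in either direction among 59 genes tested with edgeR, where 10.7% of all genes were called, 7.22% higher and 3.47% lower. At an unadjusted p under 0.05, 10 were lower and 1 was higher, DESeq2 called 7 lower and 0 higher, and the median was -0.46 on the log2 scale against -0.01 for all genes. The share of all genes at that unadjusted p was not counted, and the DESeq2 total over all genes is given further below. The lowest values were those of CG31091 (-2.16 ± 0.93) and CG8628 (-2.14 ± 0.99), and the highest that of CG12057 (1.503 ± 0.77). The 3 CG6272 libraries of CG31091 stood at 14.4, 2.62 and 0.948 CPM. A p that misses the threshold does not show that the knockdowns act alike.

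The control lines were compared with each other, white RNAi against GFP RNAi. Of 59 genes tested with edgeR 4 were higher in white RNAi and 0 lower, where 12.9% of all genes were called, 6.79% higher and 6.09% lower. CG33926 was higher by 2.70 ± 0.16 on the log2 scale (edgeR adjusted p = 8.74e-07). CG13313, at 1.28, 1.51 and 1.35 CPM in white RNAi and 0.0913, 0.0319 and 0.0969 CPM in GFP RNAi, was higher by 4.17 ± 0.41 (edgeR adjusted p = 4.63e-05). CG16762, at 4.90, 2.38 and 3.55 against 1.43, 0.479 and 1.16 CPM, was higher by 1.82 ± 0.41 (edgeR adjusted p = 0.0115). Its call was lost in 1 of 21 alternatives, the fit without the libraries rich in ninaE. That fit keeps only replicate 1 of GFP RNAi. CG33282, at 0.182, 0.220 and 0.912 against 0.0304, 0.0958 and 0.0323 CPM, was higher by 2.97 ± 0.85 (edgeR adjusted p = 0.0373, and 0.00536 to 0.189 over its 21 alternatives). The libraries of the 2 lines did not overlap for any of the 4. These were named for their calls, and the share of other genes without overlap was not counted. The median of the 59 was -1.53, with 48 below 0, and it became 0.16 without GFP RNAi replicate 1. At an unadjusted p under 0.05, 18 genes were lower, and DESeq2 called 14 lower. Without GFP RNAi replicate 2 or 3, edgeR called 6 and 8 lower. The shares of all genes for these unadjusted, DESeq2 and left-out counts are not given here, so the counts are descriptions only.

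Amyrel heads were set against driver-only heads, the 1 comparison in libraries that took no part in the choice. Only 26 of the 59 genes passed the low-count filter. With edgeR 0 were higher and 2 lower, where 1.51% of all tested genes were called, 0.791% higher and 0.716% lower. At an unadjusted p under 0.05, 4 were higher and 4 lower, and DESeq2 called 2 higher. The share of all genes at that unadjusted p was not counted, and the DESeq2 total is given further below. The protease gene CG10472 was at 4.35, 4.90 and 4.43 CPM in control heads and 2.65, 2.57 and 2.62 CPM in Amyrel heads, and fell by 0.79 ± 0.09 on the log2 scale (edgeR adjusted p = 0.0109). The crystallin gene Cry was at 2.96, 2.63 and 3.67 CPM and 1.45, 1.15 and 1.16 CPM (-1.29 ± 0.16, edgeR adjusted p = 0.0168). Neither gene, each named for its call, overlapped between the groups, and the share of other genes without overlap was not counted. Both lost the call without Amyrel head replicate 2, CG10472 also without control head replicate 2 and Cry without Amyrel head replicate 3. Their adjusted p ran up to 0.0746 and 0.0844 over 10 alternatives. dmGlut was at 11.3, 10.02 and 9.14 CPM in control heads and 17.2, 13.4 and 13.3 CPM in Amyrel heads, and was called higher only with replicate number in the model (0.53 ± 0.06, edgeR adjusted p = 0.0339, against 0.0931 without). The median of the 26 was -0.03.

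**Figure D4:**
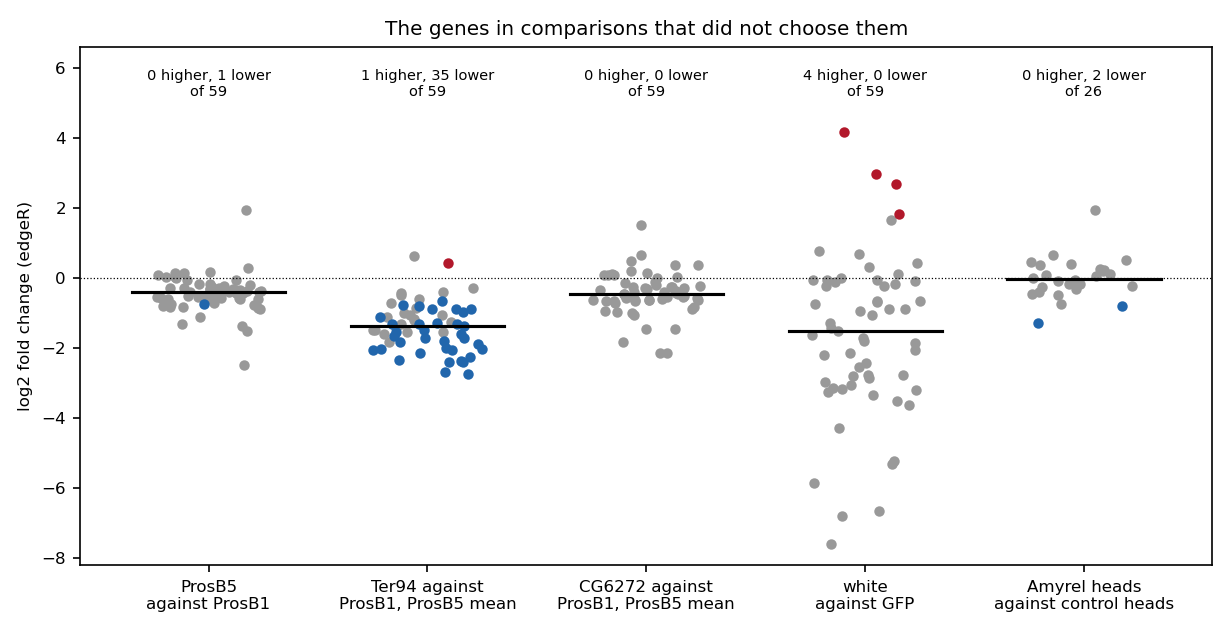
Log2 fold change from edgeR of each of the 59 genes in the 5 comparisons that did not choose them (26 genes in heads), each point being 1 gene, with genes called higher in red, called lower in blue, others grey, and the bar at the median. The Ter94 comparison has 35 genes called lower around a median of -1.38, and the white against GFP comparison has the widest spread, from -7.61 to 4.17, with 4 genes called higher.

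Lists of genes with related roles, other than the 59, were counted in the same knockdown comparisons with edgeR. The shares of all tested genes called higher, given above, were 11.6, 17.3, 29.7 and 13.3% in ProsB1, ProsB5, Ter94 and CG6272 RNAi, and those called lower 9.73, 13.8, 28.4 and 9.53%. Several counts below lie near these shares and are descriptions only. Of 21 tested gut proteases outside the Jon and Try families, 11 rose and 2 fell in ProsB1 RNAi, 11 and 4 in ProsB5 RNAi, and 6 and 11 in Ter94 RNAi, and of 16 tested with CG6272 RNAi 8 rose and 4 fell. CG18493 rose in all 4, from 14.5 ± 5.16 CPM in the controls to 211 ± 88.4 CPM in ProsB1 RNAi and 27.6 ± 1.33 CPM in Ter94 RNAi. Of 14 gut lipases 5 rose and 1 fell in ProsB1 RNAi, 5 and 2 in ProsB5 RNAi, 4 and 2 in Ter94 RNAi and, of 13, 6 and 3 in CG6272 RNAi. CG31089, a lipase gene, was at 0.0671 ± 0.0652 CPM in the controls, 8.96 ± 6.83 CPM in ProsB1 RNAi, 8.88 ± 7.54 CPM in ProsB5 RNAi, 2.46 ± 0.645 CPM in Ter94 RNAi and 1.57 ± 1.01 CPM in CG6272 RNAi, and was called higher in each. Of 6 genes of sterol and lipid binding 4 rose in ProsB1 RNAi, 5 in ProsB5 RNAi, 2 in Ter94 RNAi and 5 in CG6272 RNAi, and 1 fell in ProsB1 RNAi and 2 in Ter94 RNAi. Npc2e, of the same family as Npc2d, was called higher in all 4, from 0.155 ± 0.101 CPM to 1.03 ± 0.111 CPM (Ter94) and 10.7 ± 8.50 CPM (ProsB5).

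The lists of digestive genes did not all go the same way. Of 13 genes tested for the peritrophic matrix and mucins, 2 fell in ProsB1 RNAi, 2 in ProsB5 RNAi, 8 in Ter94 RNAi and 4 in CG6272 RNAi. Of 26 transporters 7 rose and 2 fell in each proteasome knockdown and 2 rose and 15 fell in Ter94 RNAi. Of 25 tested with CG6272 RNAi 1 rose and 4 fell. Outside digestion, 8 of 19 antimicrobial and immune-induced peptide genes rose and 3 fell in ProsB1 RNAi, 10 rose in ProsB5 RNAi, 5 rose and 2 fell in Ter94 RNAi, and 5 rose in CG6272 RNAi. The 5 in Ter94 RNAi are near the share of all genes. In the same order of knockdowns, 1, 6, 4 and 3 of 13 genes of the ATF4 and C/EBP stress response rose and 2, 2, 1 and 1 fell. Of 19 oxidative stress enzymes 1, 5, 3 and 4 rose and 3, 4, 11 and 2 fell. Of 11 JAK-STAT genes 1, 3, 3 and 1 rose, and 1 fell in CG6272 RNAi. Of 11 JNK and wound genes 1 rose and 1 fell in ProsB5 RNAi, 5 fell in Ter94 RNAi and 3 in CG6272 RNAi. Of 9 iron and metal genes 4 rose in ProsB5 RNAi, 2 rose and 5 fell in Ter94 RNAi, and 1 rose and 1 fell in CG6272 RNAi. Takeout and juvenile hormone binding genes, 17 in all and 16 for CG6272 RNAi, fell in 5, 6, 13 and 7 cases and rose in 2, 1, 1 and 1.

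The position of the genes was not used to choose them. All 59 were matched to the RefSeq gene table of the Release 6 assembly, 11 of them under a newer symbol. By chromosome arm, 18 lie on 3R, 16 on 2L, 11 on 3L, 7 on X and 7 on 2R. Another of the 59 is the adjacent protein-coding gene for 16, in 6 runs. These are the 2L row of 5, CG31343, CG31233 and CG31198 on 3R, the pairs CG15533 with CG15534 and CG8773 with CG8774 on 3R, and the pairs CG18585 with CG7025 and Try29F with CG9568 on 2L. The members of a run have related roles in 4 of these, peptidases in 3 and sphingomyelinases in 1, and how many neighbours other genes have was not counted. In the same annotation 20 of the 59 overlap another gene and 7 overlap one on the same strand, among them Oseg4, which overlaps drpr, and CG3106, which overlaps Ptpmeg2. Reads of adjacent and related genes can be hard to assign where their sequences are alike.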

How the data were processed

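RNA was sequenced from thoraces and heads with a stranded mRNA kit on an Illumina sequencer, per the labels' protocols. Reads were aligned with STAR to build BDGP5, per the submitters' processing notes. For the counting tool, its annotation and its strand setting, the sources used here give nothing. The deposited values are raw read counts per gene made by the authors. Summary rows that name no gene held 19.4 to 31.2% of the reads in thorax files and 22.7 to 25.4% in head files and were left out of library sizes and tests. CPM was computed as 1000000 times the count over the sum of gene rows.

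Counts were tested with edgeR 4.0.16 in R 4.3.3, using the quasi-likelihood fit, TMM scaling, filterByExpr (minimum count 10, minimum total 15) and Benjamini-Hochberg adjustment over all genes tested. Calls were made at an adjusted p below 0.05, and the standard errors are those of the log2 fold change. DESeq2 1.42.0, other scalings, no filter, a replicate term and leaving out libraries were alternatives. Leaving out libraries with over 30 CPM of Acp36DE or over 100 CPM of ninaE, and summing Ter94 RNAi replicates 2 and 3, were chosen after seeing the data. On simulated data the Ter94 comparison with the proteasome mean recovered 84.4% of 2-fold and 93.1% of 4-fold changes. The labels call the libraries biological replicates, so p-values measure the spread between these libraries. Deviations of same-numbered libraries correlated by 0.147 to 0.463 between ProsB5 and ProsB1 RNAi and by 0.155 to 0.239 between the head groups. They also correlated by 0.532 to 0.764 between ProsB5 and GFP RNAi and by 0.128 to 0.434 between ProsB1 and GFP RNAi. The limit for pairing was a correlation of 0.1, which ProsB5 and ProsB1 RNAi with GFP RNAi also exceeded. Comparisons with the controls also held white RNAi, whose deviations correlated by -0.455 to 0.702 with those of ProsB5 RNAi. The numbers were taken to pair only ProsB5 with ProsB1 RNAi and the head groups. The main fits held no replicate term, so the counts given first leave such pairing out.

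The members and the lists of related genes were chosen with earlier results of these data known. Genes named in full are those of highest level, largest smallest fold, lowest adjusted p in a comparison, nearest to a threshold, or on a list or role. The RefSeq gene table of Release 6 gave names, chromosome arms and neighbours only, since the files use another build.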

Additional observations from a re-analysis of the deposited data

Results flagged for a closer look

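GFP RNAi replicate 1 stood apart from the other 5 controls in the summed level of the 59 genes, at 532.7 CPM against 170.6 to 289.6 CPM. Taken gene by gene, 38 of the 59 had 1 control library farther from the rest than Dixon's limit of 0.625 for 6 samples. The share of other genes past this limit was not counted, so the number is a description only. In 36 of them it was GFP RNAi replicate 1, and in CG33258 and CG33282 it was white RNAi replicate 3. That limit flags about 1 in 20 groups of normally distributed values, a rate that was not checked for CPM at a few reads. CG12057 was flagged with 3 reads in GFP RNAi replicate 1 and 1 read in the other controls together. Genes of the same library are also not independent.

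Between knockdowns, 1 of the 59 genes was lower under ProsB5 RNAi than under ProsB1 RNAi. Under Ter94 RNAi 35 genes were lower and 1 was higher than under the mean of the proteasome knockdowns. These differences were tested directly between the knockdowns with edgeR.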

How the results depend on the processing

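The 59 genes became 57 to 70 when 1 library was left out. CPM on TMM library sizes gave 55 genes and CPM on DESeq2 size factors 53. Aph-4, CG1946, CG33282 and CG7881 were lost under either scaling. A fold of at least 1.5 gave 82 genes and of at least 3 gave 51, and a level of at least 1 CPM gave 70 and of at least 5 CPM 45. GFP RNAi alone as control gave 79 genes and white RNAi alone 74. With DESeq2, the genes called numbered 1023 for ProsB5 against ProsB1 RNAi (672 with edgeR), 2171 for CG6272 RNAi against the proteasome mean (1139) and 441 in heads (162). DESeq2 called 7 of the 59 lower for CG6272 RNAi against the proteasome mean, 14 lower for white against GFP RNAi and 2 higher in heads. For white against GFP RNAi the DESeq2 share of all genes is not given here. Without the libraries rich in Acp36DE, 387 genes were called for ProsB5 against ProsB1 RNAi with 0 of the 59 lower, 312 for CG6272 RNAi against the proteasome mean, 660 for white against GFP RNAi (1451), 2256 for ProsB5 RNAi (3492) and 843 for CG6272 RNAi (2463) against the controls. Without those rich in ninaE, the counts were 536 for white against GFP RNAi with 2 of the 59 higher and 12 lower, and 1530 for ProsB1 RNAi (2397), 2274 for ProsB5 RNAi and 299 for CG6272 RNAi against the controls. White RNAi alone as control gave 1246 genes for CG6272 RNAi. With Ter94 replicates 2 and 3 summed, 23 of the 59 were lower than the proteasome mean. The replicate block gave 682 genes and 4 of the 59 lower for CG6272 RNAi against the proteasome mean. It gave 2 lower for white against GFP RNAi and 1 higher in heads, where its shares of all genes are not given here. Same-numbered deviations correlated by -0.345 to 0.502 between white and GFP RNAi. Between CG6272 RNAi and the proteasome knockdowns they correlated by -0.0235 to 0.169. Neither of these comparisons was taken as paired. The cause of these shifts was not tested, apart from there being fewer libraries.

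With 1 library left out, ProsB5 against ProsB1 RNAi gave 371 to 874 genes, with 0 to 1 of the 59 higher and 0 to 1 lower. Ter94 RNAi against the proteasome mean gave 5664 to 6739 (6425), with 1 to 2 higher and 22 to 47 lower. CG6272 RNAi against that mean gave 137 to 2085, with 0 of the 59 in either direction. White against GFP RNAi gave 828 to 1624, with 3 to 5 higher and 0 to 8 lower, and the heads gave 25 to 207, with 0 higher and 0 to 2 lower. Against the controls the ranges were 1505 to 2615 (ProsB1), 2502 to 3656 (ProsB5), 5730 to 6718 (Ter94, 6544) and 1220 to 3147 (CG6272). Of the named genes' values under the alternatives, 240 kept direction and call, 17 lost the call and 0 reversed. Genes at a few reads in the controls have folds limited by depth.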
